A study of Homo sapiens with 9 samples.

Results

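The box H/ACA genes followed here are the 7 genes DKC1, GAR1, NHP2, NOP10, NAF1, SHQ1 and NOLC1, chosen by name as the core of the H/ACA ribonucleoprotein and its assembly factors. All 7 were among the 17637 genes of the count table, and all 7 passed the filter on low counts, as did 15309 genes in all. Messenger RNA was measured in 9 libraries of KOPTK1, a line long grown from a human T-cell acute lymphoblastic leukaemia, with the genotype given as WT. There were 3 libraries in each of 3 groups. The shDHX15+MYC cells received lentivirus with a short hairpin RNA (shRNA) against the RNA helicase DHX15 together with the coding region of MYC. The shDHX15 cells received the hairpin without MYC, and the shcControl cells received a control hairpin, which the column names give as one against GFP. Judged by the column names, 1 and the same hairpin was used in all 6 knockdown libraries, so that an effect of the hairpin other than loss of DHX15 cannot be told apart from that loss. No group received MYC without the DHX15 hairpin. Rises and falls with MYC below are differences of shDHX15+MYC from the other groups. Any further difference between these cells cannot be told apart from that of MYC. All 9 libraries come from 1 cell line, and nothing in the labels tells whether replicates were grown apart. The p-values then reflect the spread of these libraries, which may be technical.

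H/ACA ribonucleoproteins turn chosen uridines of ribosomal and spliceosomal RNA into pseudouridine, with a small guide RNA that pairs with the target. DKC1 (dyskerin) is the pseudouridine synthase, NOP10 and NHP2 bind it to form the core, and GAR1 joins last. Before that, SHQ1 holds newly made DKC1 as a chaperone, the R2TP complex frees DKC1 from it, and NAF1 takes the place of GAR1 until the particle matures. NOLC1 (Nopp140) is a phosphoprotein of nucleoli and Cajal bodies that binds the finished particles. The RNA of telomerase carries an H/ACA domain and is held by the same proteins, and inherited mutations of DKC1, NOP10 and NHP2 cause dyskeratosis congenita.

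Libraries held 42134302 to 59688062 counts. A gene with no count could thus reach up to 3 counts, which is 0.0503 to 0.0712 CPM (here counts relative to the library total; counting error only). With TMM scaling, which also sets the scale of the gene levels further on, DHX15 was at 195 ± 2.55 CPM in shDHX15+MYC, 167 ± 13.8 in shDHX15 and 280.3 ± 3.43 in shcControl (SD, n = 3), and MYC at 7098 ± 153, 86.9 ± 3.78 and 109 ± 0.603 CPM. DHX15 was itself called higher in shDHX15+MYC than in shDHX15, by 0.23 on the log2 scale (edgeR adjusted p = 1.24e-04). MYC was far above its shcControl level in the shDHX15+MYC libraries. These libraries stood apart from the other 6 along the first principal component (84.9% of variance). Within shDHX15, replicate 1 differed from the other libraries of its group by 17.1 and 18.1 (chi-square of the counts over its degrees of freedom), where those differed from each other by 4.45 and libraries of the other groups by 2.72 to 3.23. Leaving it out added 1 call among the H/ACA genes, that of NAF1, and took none away. Mitochondrially encoded genes took 6.59 to 6.66% of counts in shDHX15+MYC, 3.67 to 3.87% in shDHX15 and 3.87 to 3.99% in shcControl. Of 10 T-cell markers 9 were in the table, and their summed level, relative to the library total without TMM scaling and so on another scale than that of DHX15, was 1623 to 1644 CPM in shDHX15+MYC, 2079 to 2143 in shDHX15 and 2458 to 2559 in shcControl, with none at 0. On that same scale B-cell markers (3 of 4 in the table) summed to 111 to 115 CPM in shDHX15+MYC, 35.7 to 37.8 in shDHX15 and 37.3 to 38.2 in shcControl. Adherent-cell markers (5 of 5) summed to 40.5 to 41.3, 13.6 to 14.5 and 17.7 to 18.9 CPM in the same order of groups, with COL1A2 at 0 in shcControl. Myeloid markers (4 of 4) summed to 4.86 to 5.77, 0.222 to 0.576 and 0.335 to 0.803 CPM, with CSF1R at 0 in shDHX15. The part of these shifts in the results on H/ACA genes was not tested.

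In shDHX15 against shcControl, the message of the catalytic subunit went the other way from those of the other core subunits and SHQ1. DKC1 rose 1.31-fold in shDHX15 over shcControl, while the other core subunits GAR1, NHP2 and NOP10 and the chaperone SHQ1 fell to between 0.75 and 0.86 of their shcControl level. With MYC added, DKC1 rose further, GAR1 and NHP2 turned upward, and NAF1 and NOLC1 more than doubled. SHQ1 did not turn: it was lower in shDHX15+MYC than in shDHX15, and lower there than in shcControl. Counts and tests for each gene follow, with levels as CPM after TMM scaling and fold changes from edgeR's quasi-likelihood test, adjusted over all 15309 genes.

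**Figure D1:**
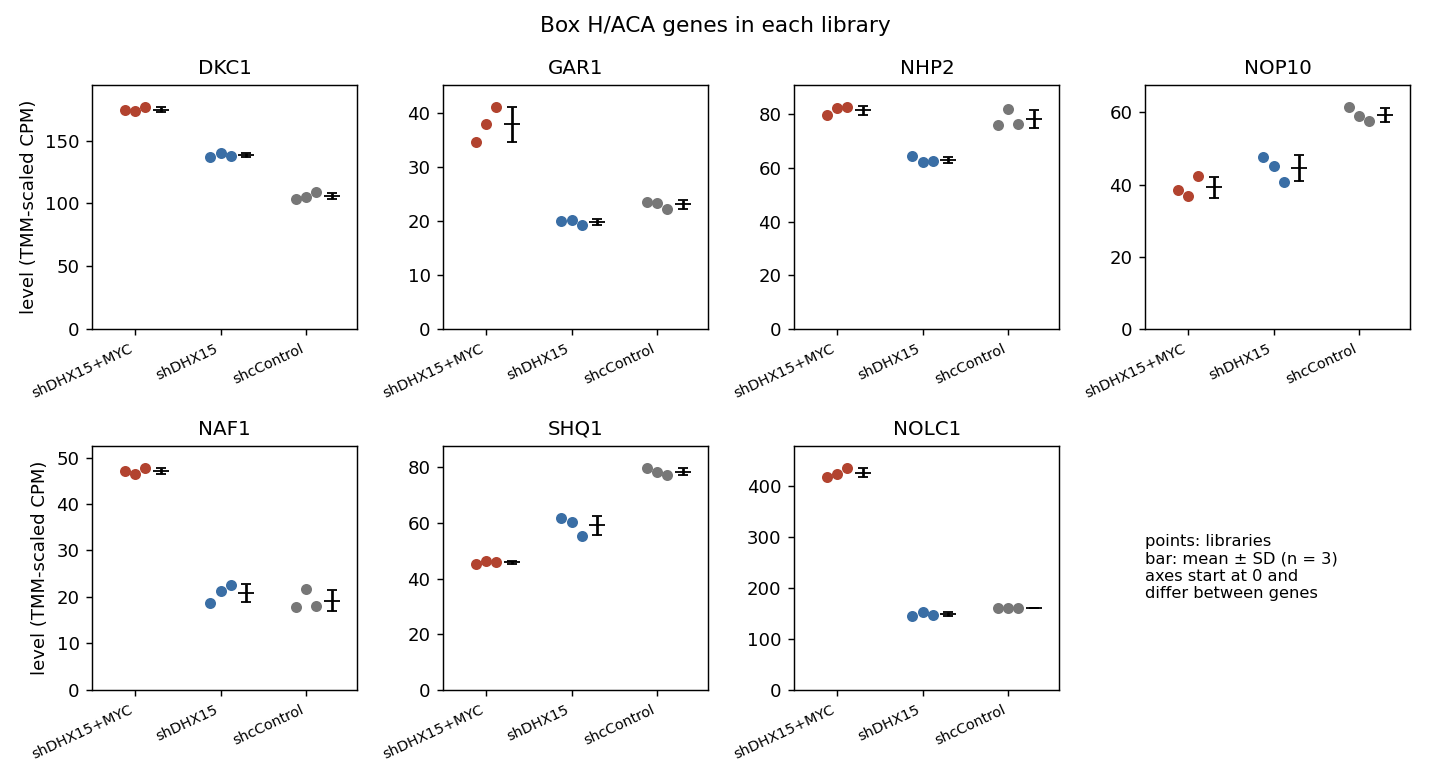
Level of each box H/ACA gene in every library, in TMM-scaled CPM on axes that start at 0 and differ between genes; points are libraries and the bar beside them is the mean ± SD of 3. DKC1 stands at 173 to 177 CPM in shDHX15+MYC, 137 to 140.3 in shDHX15 and 104 to 109 in shcControl, whereas SHQ1 runs the other way, at 45.1 to 46.1, 55.4 to 61.7 and 77.4 to 79.8 CPM.

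DKC1 lies on chromosome X at 154762742 to 154777689 (GRCh38, GENCODE v29, plus strand). Its level was 174, 173 and 177 CPM in the shDHX15+MYC libraries, 137, 140.3 and 138 in the shDHX15 libraries and 104, 105 and 109 in the shcControl libraries. The groups form 3 separate steps, with no overlap between any of them. Against shcControl, DKC1 in shDHX15 was higher by 0.39 on the log2 scale (SE 0.0320, edgeR adjusted p = 6.06e-08), and 11.7% of genes tested had a higher fold change. In shDHX15+MYC it stood above shDHX15 by a further 0.34 (SE 0.0315, adjusted p = 2.00e-08) and above shcControl by 0.72 (SE 0.0320, adjusted p = 5.85e-13). The difference between shDHX15+MYC and shDHX15 was 0.53 with total counts. The span of DKC1 holds 2 H/ACA guide RNAs on its own strand, SNORA36A at 154768528 to 154768659 and SNORA56 at 154774998 to 154775126. In this annotation 117 bases of SNORA36A and 129 of SNORA56 also lie in exons of DKC1 transcripts. No gene named SNORA or SCARNA was in the count table (0 of each), and the libraries were selected for poly(A), so the guide RNAs themselves were not measured here.

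GAR1, the subunit that completes the particle, lies on chromosome 4 at 109815510 to 109824740 (plus strand). It was at 34.6, 37.9 and 41.1 CPM in shDHX15+MYC, at 19.9, 20.2 and 19.25 in shDHX15 and at 23.5, 23.4 and 22.2 in shcControl. The shDHX15 libraries lie just below the lowest shcControl library, and all shDHX15+MYC libraries lie well above both. GAR1 fell in shDHX15 by 0.22 on the log2 scale against shcControl (SE 0.0656, edgeR adjusted p = 0.0124). This call was lost when libraries were scaled by total counts (-0.15, adjusted p = 0.0663). With MYC it rose over shDHX15 by 0.93 (SE 0.0639, adjusted p = 2.49e-10), 1.91-fold, and over shcControl by 0.72 (SE 0.0637, adjusted p = 9.83e-09).

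NHP2, which binds guide RNA in the core, lies on chromosome 5 at 178149460 to 178153967 (minus strand). Its levels were 79.6, 82.3 and 82.7 CPM in shDHX15+MYC, 64.4, 62.3 and 62.5 in shDHX15 and 76.1, 82.2 and 76.5 in shcControl. The shDHX15 libraries stand alone below the rest, and the shDHX15+MYC and shcControl ranges overlap. NHP2 fell by 0.31 on the log2 scale in shDHX15 against shcControl (SE 0.0405, edgeR adjusted p = 8.95e-06) and rose by 0.37 in shDHX15+MYC against shDHX15 (SE 0.0404, adjusted p = 1.44e-07; 0.57 with total counts). Between shDHX15+MYC and shcControl the difference was 0.06, with an interval of 2 SE from -0.02 to 0.14, and was not called (adjusted p = 0.170). It was called with size factors (0.10, adjusted p = 0.0294), total counts (0.33) and the upper quartile (0.23), in DESeq2 (0.10) and in a fit restricted to genes averaging a log2 CPM of 3 or more (0.27). Of the annotated exon bases of NHP2, 27.4% also lie in exons of RMND5B on the opposite strand, and whether the counting used strand is not given in the sources used here. RMND5B stood at 63.6 ± 1.15 CPM in shDHX15+MYC, 47.0 ± 2.41 in shDHX15 and 57.1 ± 2.07 in shcControl (SD, n = 3). Like NHP2, it was called lower in shDHX15 than in shcControl and higher in shDHX15+MYC than in shDHX15. It was also called higher in shDHX15+MYC than in shcControl (0.16, edgeR adjusted p = 0.00487), where NHP2 was not in the same fit. If strand was not used, reads from the shared bases cannot be assigned to 1 of the pair. How much of the NHP2 counts they make up was not tested.

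NOP10, the smallest core subunit, lies on chromosome 15 at 34341713 to 34343177 (minus strand). It was at 38.6, 36.8 and 42.5 CPM in shDHX15+MYC, at 47.7, 45.3 and 40.7 in shDHX15 and at 61.5, 59.0 and 57.7 in shcControl. Both knockdown groups lie below every shcControl library, and they overlap each other. NOP10 fell by 0.41 on the log2 scale in shDHX15 (SE 0.0606, edgeR adjusted p = 3.04e-05) and by 0.60 in shDHX15+MYC (SE 0.0613, adjusted p = 7.20e-08), each against shcControl; with total counts the shDHX15+MYC value was -0.33 (adjusted p = 8.00e-05). The difference between shDHX15+MYC and shDHX15, -0.18 (SE 0.0616, adjusted p = 0.0118), depends on the scaling. It was 0.02 with total counts (adjusted p = 0.793), -0.0026 with the upper quartile (adjusted p = 0.970) and 0.02 in that restricted fit (adjusted p = 0.789), and it was lost without replicate 2 of shDHX15+MYC (-0.14, adjusted p = 0.0686).

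Among the assembly factors, NAF1 lies on chromosome 4 at 163110073 to 163166921 (minus strand) and SHQ1 on chromosome 3 at 72749277 to 72861914 (minus strand). NAF1 was at 47.2, 46.6 and 47.8 CPM in shDHX15+MYC, at 18.7, 21.3 and 22.5 in shDHX15 and at 17.8, 21.7 and 18.0 in shcControl. The shDHX15 and shcControl ranges overlap, and the shDHX15+MYC libraries stand far above both. In shDHX15+MYC NAF1 was 2.26-fold higher than in shDHX15 (1.18 on the log2 scale, SE 0.0746, edgeR adjusted p = 8.58e-11) and 2.46-fold higher than in shcControl (1.30, SE 0.0758, adjusted p = 2.81e-11). In shDHX15 against shcControl its difference of 0.12 (2 SE interval -0.03 to 0.28) was not called (adjusted p = 0.223), but it was without replicate 1 of shDHX15 (0.19, adjusted p = 0.0191) and without replicate 2 of shcControl (0.22, adjusted p = 0.0296). SHQ1 was at 45.1, 46.1 and 46.1 CPM in shDHX15+MYC, at 61.7, 60.2 and 55.4 in shDHX15 and at 79.8, 78.2 and 77.4 in shcControl. These are again 3 separate steps, in the reverse order of those of DKC1. SHQ1 fell by 0.41 on the log2 scale in shDHX15 against shcControl (SE 0.0437, edgeR adjusted p = 1.08e-06), by 0.37 in shDHX15+MYC against shDHX15 (SE 0.0447, adjusted p = 6.04e-07) and by 0.78 in shDHX15+MYC against shcControl (SE 0.0445, adjusted p = 2.17e-11). Between shDHX15+MYC and shDHX15 it was still called, but nearer to 0, with total counts (-0.17, adjusted p = 0.00209), with the upper quartile (-0.19, adjusted p = 8.93e-04) and in the restricted fit (-0.17, adjusted p = 0.00197). Against shcControl it was -0.51 in shDHX15+MYC with total counts.

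NOLC1 lies on chromosome 10 at 102152176 to 102163871 (plus strand) and had the highest count of the 7 genes. It was at 419, 424 and 436 CPM in shDHX15+MYC, at 146, 153 and 147 in shDHX15 and at 159.7, 160.2 and 160.1 in shcControl. The shDHX15 libraries lie only slightly under the shcControl libraries, and the shDHX15+MYC libraries are far above. With MYC the gene rose 2.87-fold over shDHX15 (1.52 on the log2 scale, SE 0.0310, edgeR adjusted p = 1.93e-17) and 2.66-fold over shcControl (1.41, SE 0.0309, adjusted p = 4.77e-17), and 16.0% of genes tested had a higher fold change in each of these comparisons. It fell in shDHX15 by 0.11 (SE 0.0310, adjusted p = 0.00938), a call that was lost with total counts (-0.04, adjusted p = 0.284) and when only the libraries of shDHX15 and shcControl were fitted (-0.09, adjusted p = 0.0529).

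**Figure D2:**
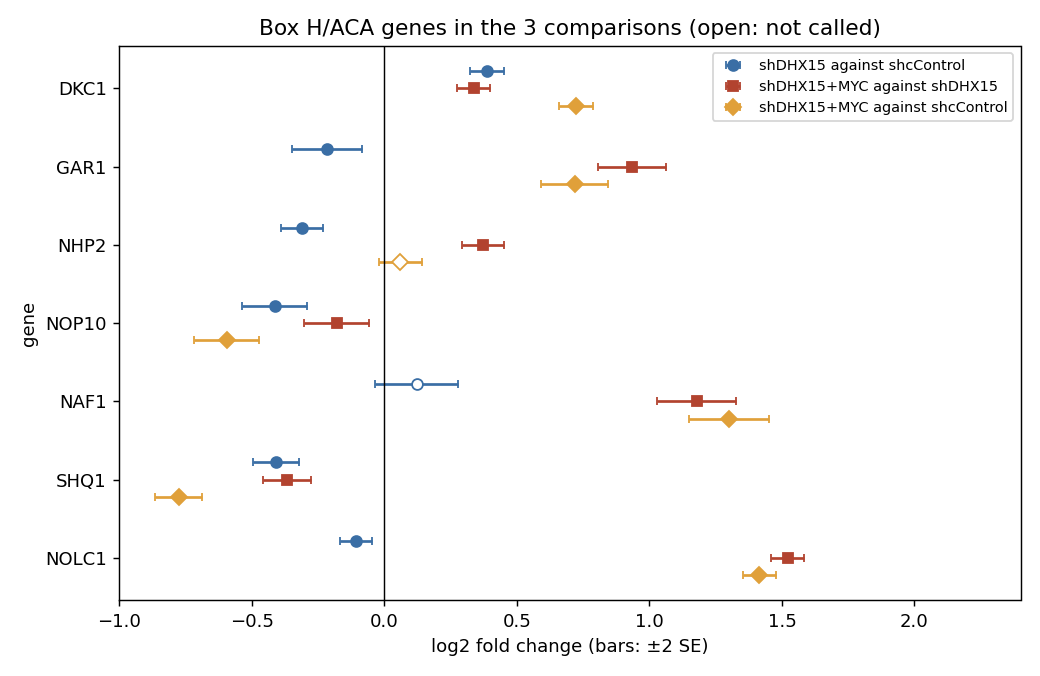
Log2 fold change of each box H/ACA gene in the 3 comparisons, with bars of 2 SE to each side; filled symbols were called at an adjusted p under 0.05 and open symbols were not. DKC1 lies right of 0 and SHQ1 left of 0 in all 3 comparisons, at 0.39, 0.34 and 0.72 for DKC1 and at -0.41, -0.37 and -0.78 for SHQ1, in the order of the legend.

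Read as a group, 5 of the 7 genes were called lower and 1 higher in shDHX15 against shcControl, where 23% of all genes tested were called lower, 22% higher and 45% either way. The ranges of 6 members did not overlap there, 1 higher and 5 lower, as for 51.1% of all genes (24.4% higher, 26.6% lower). The 5 called lower were 3 with total counts, without GAR1 and NOLC1, and 4 when only these groups were fitted, without NOLC1. Their median log2 fold change was -0.22, against -0.0047 over all genes. In shDHX15+MYC against shDHX15, 5 were called higher and 2 lower, where 42.1% and 42.6% of all genes were (42.4% and 42.6% without overlap, 85% either way), and their median was 0.37 against 0.0058 over all genes. Since 84.7% of all genes were called in one direction or the other in this comparison, that all 7 were called says little about them. In shDHX15+MYC against shcControl, 4 were called higher and 2 lower (42% and 42.5% of all genes, 84.5% either way; 43.5%, 43.6% and 87.2% without overlap), with a median of 0.72 against 0.02. DKC1, GAR1, NAF1 and NOLC1 were called higher in shDHX15+MYC than in both other groups, as were 37.2% of all genes tested. NAF1 and NOLC1 were called at least 2-fold higher in shDHX15+MYC than in shDHX15, as were 21.7% of all genes, and than in shcControl, as were 21.3%. The comparisons share libraries in pairs, so their results are not independent of each other.

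Scaling does not enter the ratio of 2 genes within a library, and such ratios compare the messages of its members, not proteins or assembled particles. The ratio of DKC1 to NOP10 counts was 4.46 ± 0.280 in shDHX15+MYC, 3.12 ± 0.255 in shDHX15 and 1.79 ± 0.100 in shcControl (SD, n = 3). That of DKC1 to SHQ1 was 3.82 ± 0.0502, 2.35 ± 0.132 and 1.35 ± 0.0541 in the same groups. For both ratios the groups were fully separate. The ratio of DKC1 to GAR1 behaved differently, at 4.63 ± 0.368 in shDHX15+MYC, 6.99 ± 0.140 in shDHX15 and 4.61 ± 0.269 in shcControl: the shDHX15 libraries stood above the others, and those with MYC overlapped shcControl. DKC1 to NHP2 was 2.14 ± 0.0392 in shDHX15+MYC, 2.196 ± 0.0614 in shDHX15 and 1.36 ± 0.0708 in shcControl, so that both knockdown groups overlapped each other above shcControl. Reads from the exon bases that NHP2 shares with RMND5B may enter this ratio. NAF1 to GAR1, the pair of which one takes the place of the other in the particle, was 1.25 ± 0.102, 1.05 ± 0.112 and 0.833 ± 0.0889 in the same groups, with overlap only between shDHX15+MYC and shDHX15. With 3 libraries against 3 the exact 2-sided permutation test cannot go below p = 0.1, and each comparison of ratios without overlap gave that value (0.129 adjusted over 27 comparisons of ratios and shares).

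**Figure D3:**
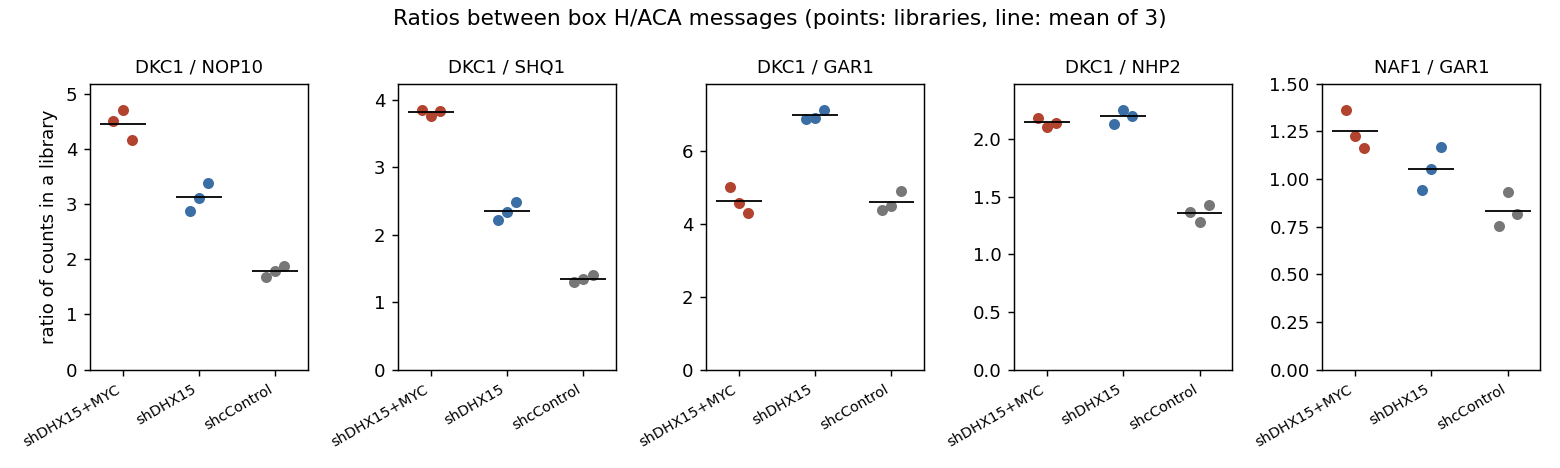
Ratio of the counts of 2 box H/ACA genes in each library (points), with the mean of 3 libraries as a line, on axes that start at 0. DKC1 / NOP10 and DKC1 / SHQ1 are highest in shDHX15+MYC and lowest in shcControl, at means of 4.46 and 1.79 and of 3.82 and 1.35, whereas DKC1 / GAR1 is highest in shDHX15, at 6.99.

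Per kilobase (kb) of coding-transcript exons, the order of the messages differed between groups. In shDHX15+MYC it was NOLC1 at 107 ± 2.19 CPM per kb, NHP2 at 94.3 ± 1.93, NOP10 at 70.9 ± 5.23, DKC1 at 56.7 ± 0.554, GAR1 at 29.98 ± 2.56, NAF1 at 18.6 ± 0.246 and SHQ1 at 15.1 ± 0.192 (SD, n = 3). In shDHX15 NOP10 led at 80.4 ± 6.44 CPM per kb and overlapped NHP2 at 72.9 ± 1.31, followed by DKC1 at 44.9 ± 0.556, NOLC1 at 37.4 ± 0.989, SHQ1 at 19.5 ± 1.09, GAR1 at 15.7 ± 0.398 and NAF1 at 8.23 ± 0.752. In shcControl NOP10 led at 107 ± 3.49 CPM per kb, then NHP2 at 90.4 ± 3.94, NOLC1 at 40.3 ± 0.0660, DKC1 at 34.4 ± 0.852, SHQ1 at 25.9 ± 0.416, GAR1 at 18.2 ± 0.602 and NAF1 at 7.57 ± 0.875. SHQ1 was thus above GAR1 and NAF1 in shcControl and the lowest of the 7 in shDHX15+MYC, and apart from NOP10 and NHP2 in shDHX15 no neighbours in these orders overlapped. When lengths were taken from the exons of all transcripts instead, NHP2 fell behind NOP10 in shDHX15+MYC (54.0 and 70.9 CPM per kb) and DKC1 behind NOLC1 in shDHX15 (32.9 and 37.4). Of the summed level of the 4 core subunits per kb, DKC1 made up 22.5% ± 0.584 in shDHX15+MYC, 21.0% ± 0.793 in shDHX15 and 13.7% ± 0.563 in shcControl. NOP10 made up 28.1% ± 1.24, 37.5% ± 1.68 and 42.8% ± 1.19, and GAR1 11.9% ± 0.655, 7.33% ± 0.168 and 7.28% ± 0.135, in the same groups. These shares depend on the lengths used and were not recomputed with the exons of all transcripts. Their sum includes NHP2, whose counts may hold reads from the exon bases it shares with RMND5B.

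Promoter windows from RefSeq (GRCh38.p14; 250 bases before to 50 after a start) were matched by symbol for 5 of the 7 genes, with 6 windows, and were searched for CACGTG, the canonical E-box that MYC and its relatives bind. The motif reads the same on both strands. Of the 6 windows 2 hold it, the one of NOP10 and the second of GAR1, where 8.94% of 16727 windows of genes tested do. NOP10 has it at bases 81 and 240 of its window and GAR1 at base 282 of its second window. The windows of DKC1, SHQ1 and NHP2 and the first window of GAR1 hold none. The SHQ1 window lies inside the GENCODE span of the gene, which on the minus strand starts at 72861914, and that start was not searched. The hexamers CACGCG and CATGTG were searched on both strands too. CACGCG was in the windows of SHQ1 and NHP2, 33.3% of the 6, against 16.1% of windows of genes tested. CATGTG was in 0% of the 6, against 7.93%. The 2 windows with CACGTG are shown with those of DKC1, which rose in shDHX15+MYC against shDHX15, and SHQ1, which fell. Whether a motif goes with the change of a gene was not tested. Capitals mark CACGTG, and sequences run 5′ to 3′ on the strand of the gene. A match describes the letters only.
NOP10, chr15:34343087-34343386, minus strand: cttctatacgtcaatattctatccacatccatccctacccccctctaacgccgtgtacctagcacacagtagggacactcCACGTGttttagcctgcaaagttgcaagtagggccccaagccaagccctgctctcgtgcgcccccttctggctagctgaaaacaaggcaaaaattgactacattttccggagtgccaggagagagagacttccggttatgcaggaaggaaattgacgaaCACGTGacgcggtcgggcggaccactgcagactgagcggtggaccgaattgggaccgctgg
GAR1, second start, chr4:109815512-109815811, plus strand: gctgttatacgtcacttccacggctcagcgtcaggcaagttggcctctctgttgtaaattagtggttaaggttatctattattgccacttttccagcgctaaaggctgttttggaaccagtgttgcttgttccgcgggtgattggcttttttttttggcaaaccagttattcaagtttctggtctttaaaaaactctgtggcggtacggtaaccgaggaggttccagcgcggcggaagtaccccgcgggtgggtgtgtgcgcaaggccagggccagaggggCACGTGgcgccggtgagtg
DKC1, chrX:154762614-154762913, plus strand: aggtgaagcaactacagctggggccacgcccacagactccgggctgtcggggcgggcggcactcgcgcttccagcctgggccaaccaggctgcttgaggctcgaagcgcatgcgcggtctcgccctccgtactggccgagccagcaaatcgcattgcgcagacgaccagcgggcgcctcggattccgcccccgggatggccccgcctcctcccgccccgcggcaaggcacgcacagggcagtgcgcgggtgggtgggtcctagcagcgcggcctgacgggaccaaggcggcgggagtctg
SHQ1, chr3:72848396-72848695, minus strand: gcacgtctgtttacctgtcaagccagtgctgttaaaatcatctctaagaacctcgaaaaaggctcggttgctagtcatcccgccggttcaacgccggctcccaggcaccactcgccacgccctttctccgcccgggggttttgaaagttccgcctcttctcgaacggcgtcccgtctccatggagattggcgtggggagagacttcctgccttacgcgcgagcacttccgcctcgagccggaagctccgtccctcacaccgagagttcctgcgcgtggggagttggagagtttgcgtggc

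How far the 7 genes ran alike was measured as the root mean square distance between their log2 CPM profiles over the 9 libraries, each centred on its own mean. The members fell closest in the pair NOP10 and SHQ1, 0.101 apart, and in the pair NAF1 and NOLC1, 0.171 apart. The widest gap was between SHQ1 and NOLC1, at 0.970. DKC1 was nearest to GAR1 among the members, at 0.290. The genes most like each member were also sought among 9375 other genes averaging a log2 CPM of 3 or more. A search over so many genes favours small distances, so they cannot be set against those between members. USP47 was nearest to DKC1 (0.0330), MRM2 to GAR1 (0.0478), CHMP3 to NHP2 (0.0315), TTC16 to NOP10 (0.0548), IP6K1 to NAF1 (0.0538), TCF12 to SHQ1 (0.0219) and EIF4G3 to NOLC1 (0.0431). MAFG and ATP6V1C1 followed for DKC1, METTL13 and HSP90AB1 for GAR1, GNAS and MAP4K4 for NHP2, CRADD and MRM1 for NOP10, SLC1A5 and ZNF268 for NAF1, RPL10A and RACK1 for SHQ1, and NCOA5 and PGAM5 for NOLC1. These distances describe 3 groups of 3 libraries and carry no test.

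Genes that work beside the H/ACA particle were compared by lists. Each count below stands beside the shares over all genes tested. In shDHX15 against shcControl 22% of these were called higher and 23% lower (median -0.0047). In shDHX15+MYC against shDHX15 the shares were 42.1% and 42.6% (median 0.0058). A list split near these shares says little about its genes. Of the 4 genes of the R2TP chaperone, which acts after SHQ1, RUVBL1 and RPAP3 rose with MYC over shDHX15, by 1.12 and 0.60 on the log2 scale (edgeR adjusted p = 1.47e-14 and 1.12e-08). PIH1D1 fell by 0.25 (adjusted p = 9.44e-06), and RUVBL2 was called lower by 0.14 (adjusted p = 0.00374) but higher, uncalled, with total counts (0.06, adjusted p = 0.160) and the upper quartile (0.04, adjusted p = 0.353). The call of PIH1D1 was lost under both of these scalings too, which left 2 of the 4 genes higher and 0 lower. In shDHX15 against shcControl 1 of these 4 was higher, RPAP3 by 0.41, and 1 lower, RUVBL1 by 0.28 (adjusted p = 1.24e-05 and 1.33e-05).

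The box C/D particle methylates ribosomal RNA in parallel with the H/ACA particle, and 9 of its core and assembly genes were tested. In shDHX15 against shcControl 4 were lower and 1 higher (median -0.12; 2 and 1 with total counts), with the methyltransferase FBL down by 0.37 and the core subunit NOP58 up by 0.16 (edgeR adjusted p = 3.12e-08 and 0.00972). In shDHX15+MYC against shDHX15 6 were higher and 3 lower (median 0.20). NOP58 reached 281 ± 6.10 CPM in shDHX15+MYC, against 76.3 ± 5.19 in shDHX15, and its partner NOP56 495 ± 4.92 against 221 ± 3.87. FBL rose by 0.20 there (adjusted p = 4.31e-06), but in shDHX15+MYC it was still called lower than in shcControl (-0.16, adjusted p = 4.30e-05). With total counts that last difference was 0.10 and was called higher (adjusted p = 0.00343). Of the 9 genes, 4 were higher and 5 lower in shDHX15+MYC against shcControl (median -0.14), where 42% and 42.5% of all genes were. With total counts 6 were higher and 2 lower.

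Of 12 pseudouridine synthases that work without guide RNAs, 3 were higher and 5 lower in shDHX15 against shcControl (median -0.13; 3 and 1 with total counts), and 8 were higher and 3 lower in shDHX15+MYC against shDHX15 (median 0.29). PUS1, which modifies transfer RNA, was at 69.3 ± 1.17 CPM in shDHX15+MYC and 22.5 ± 1.42 in shDHX15, and RPUSD4, which acts in mitochondria, at 26.1 ± 1.35 and 38.8 ± 1.34. Of the telomerase and H/ACA RNA end-processing genes 8 of 9 were tested: 3 were higher and 1 lower in shDHX15 against shcControl, and 4 higher and 2 lower in shDHX15+MYC against shDHX15 (median 0.11). TERT, the reverse transcriptase of telomerase, was at 0.716 ± 0.0804 CPM in shDHX15+MYC, 4.24 ± 0.428 in shDHX15 and 3.42 ± 0.138 in shcControl (SD, n = 3), a fall of 2.56 on the log2 scale against shDHX15 (edgeR adjusted p = 1.80e-10). PARN, which trims the ends of H/ACA RNAs, fell by 0.89, and TOE1, another deadenylase, rose by 0.93 (adjusted p = 1.35e-12 and 1.55e-11).

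Of the 6 shelterin genes, which cap telomeres, 5 were lower and 0 higher in shDHX15+MYC against shDHX15 (median -0.47), with TERF2 not called at 0.11 (adjusted p = 0.0551); against shcControl in the knockdown alone 1 was higher and 1 lower. With size factors, total counts and the upper quartile 1 shelterin gene was called higher. Among 11 Cajal body and nucleolar partners 9 were higher and 1 lower with MYC against shDHX15 (median 0.43), and 1 was higher and 5 lower in shDHX15 against shcControl (median -0.12; 1 and 2 with total counts). TCOF1, a nucleolar protein related to NOLC1, was at 243 ± 1.71 CPM in shDHX15+MYC, 134 ± 8.87 in shDHX15 and 153 ± 2.73 in shcControl, and was called lower in shDHX15 (-0.18, adjusted p = 0.00120). UBTF, a factor of ribosomal DNA transcription, was the 1 lower, by 0.10, but was called higher by 0.10 with total counts (adjusted p = 0.0187). Of these 11 genes SMN1 shares 82.1% of its 100-base windows with SMN2, and its counts are uncertain.

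**Figure D4:**
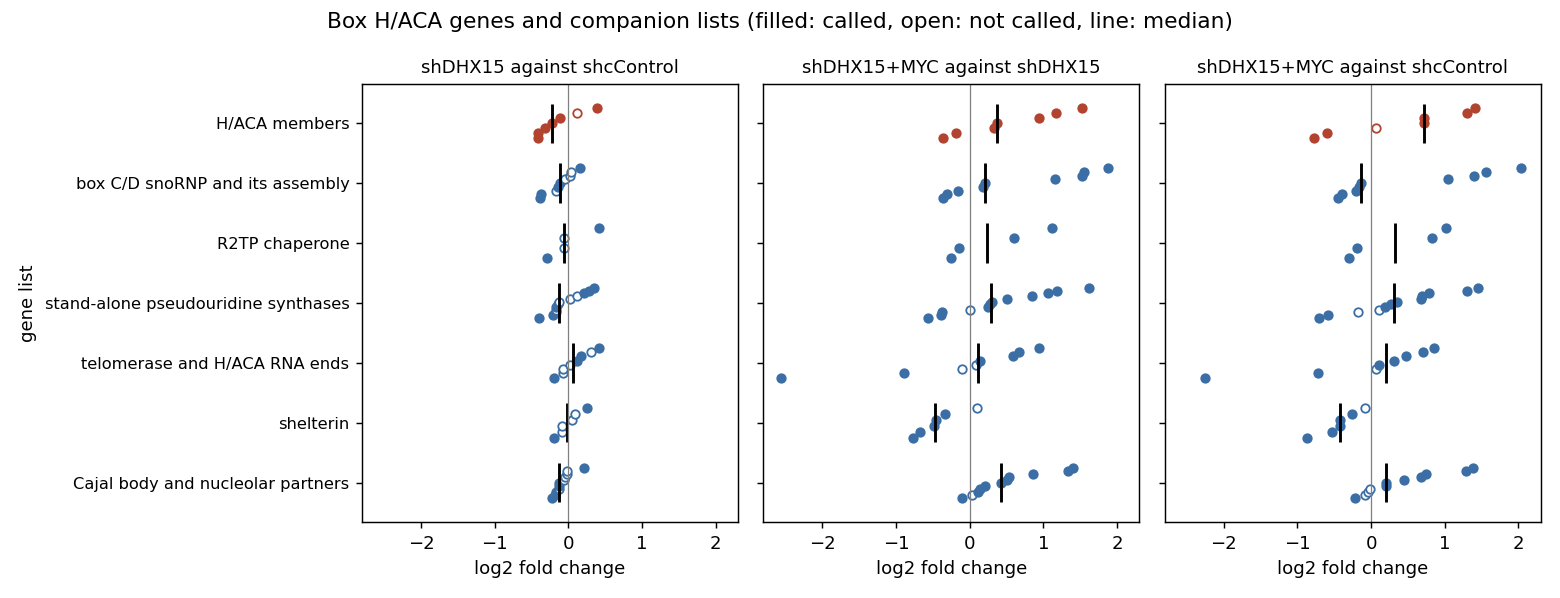
Log2 fold change of every gene tested in the box H/ACA group (red) and in 6 companion lists (blue) in the 3 comparisons; filled points were called at an adjusted p under 0.05, open points were not, and the line is the median of the list. The H/ACA median is -0.22, 0.37 and 0.72 from left to right, and the shelterin median is -0.01, -0.47 and -0.43.

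In these 100-base windows taken every 50 bases of each gene's transcripts, no window of DKC1, GAR1, NOP10, NAF1, SHQ1 or NOLC1 was found in a gene at another locus, and 3.23% of those of NHP2 were. RNA of bulk cultures does not tell less message per cell from fewer cells that hold it, and this applies to every difference above.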

How the data were processed

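The authors deposited unscaled read counts for 17637 genes in 9 libraries. Per the labels' protocols, poly(A)+ RNA was read as 150 bp pairs. HISAT2 2.2.1, FastQC 0.11.9, DESeq2 1.32.0 and the build hg38 appear in the submitters' processing notes; the counting program is not given in the sources used here, nor is the annotation. Columns were joined to samples by name, with the GFP hairpin read as shcControl and the numbered hairpin as DHX15 knockdown. Symbols that had turned into dates (26) or were repeated (2) are not used here.

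Genes were filtered with filterByExpr, scaled by TMM and fitted by edgeR 4.0.16 (quasi-likelihood, 1 mean per group, all 9 libraries; R 4.3.3). Tests were 2-sided with Benjamini-Hochberg adjustment, and a gene is called at an adjusted p under 0.05. DESeq2 1.42.0 was an alternative. The fit was also run on simulated counts in which a small set of genes changed in shDHX15 alone. Such data cannot check the scaling where most genes were called, as in the comparisons with shDHX15+MYC. Lengths, positions and overlaps came from GENCODE v29 (GRCh38). Like patterns are the 3 nearest genes per member, with clone names, uncharacterised loci and numbered FAM and TMEM genes left out by name. The members, the lists and the tests were chosen with earlier results of these data known, and companion genes are named as examples of each list.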

Additional observations from a re-analysis of the deposited data

How the results depend on the processing

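Each fold change and each count of called H/ACA genes was recomputed with size factors, total counts and upper-quartile scaling, in DESeq2, with no filter, with only genes averaging a log2 CPM of 3 or more, with only the groups compared, with a replicate block and without each library in turn. Total counts moved the median log2 fold change of all genes to 0.20 in shDHX15+MYC against shDHX15 and to 0.28 in shDHX15+MYC against shcControl, and the upper quartile moved both to 0.18. The number of members called lower in shDHX15 against shcControl, 5 as reported, was 3 with total counts and 4 with only the groups compared. The number called lower in shDHX15+MYC against shDHX15, 2 as reported, was 1 with total counts, with the upper quartile and in the fit of genes averaging a log2 CPM of 3 or more; the gene lost was NOP10, which turned to 0.02 (0.0176 with total counts and 0.0180 in the last). Leaving out 1 library at a time gave 1 to 2 members higher and 5 lower in shDHX15 against shcControl, 5 higher and 1 to 2 lower in shDHX15+MYC against shDHX15, and 4 higher and 2 lower in shDHX15+MYC against shcControl. With the replicate block the counts were 1 higher and 5 lower, 5 higher and 2 lower, and 4 higher and 2 lower in these comparisons, as without it. Libraries of the same number did not deviate together (r from -0.0917 to 0.0979 across genes), and 1 of 9 libraries correlated best with those of its own number. Of the 357 recomputed fold changes of single members, 2 reversed, 5 lost their call, 7 gained one and 343 kept direction and side of the threshold. Where the cause is not given by the scaling or the sample left out, it was not tested. The number called higher in shDHX15+MYC against shcControl, 4 as reported, was 5 with NHP2 added under 5 alternatives. The lowest count of a member in any library was 799, for NAF1 in replicate 1 of shcControl.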

Other observations

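Most H/ACA guide RNAs are cut from introns of other genes, and 143 SNORA genes are annotated, with 103 genes holding at least 1 on their own strand, of which 77 were tested. Of the 13 that encode ribosomal proteins, 12 were called lower and 0 higher in shDHX15 against shcControl (median log2 fold change -0.53), and 13 were lower in shDHX15+MYC against shDHX15 (median -0.62). With total counts and with the upper quartile 11 of the 13 were lower in shDHX15+MYC against shDHX15. Of the other 64 hosts, 12 were higher and 22 lower in shDHX15 against shcControl (median -0.05), or 20 and 14 with total counts. In shDHX15+MYC against shDHX15, 36 were higher and 24 lower (median 0.28). These 64 hosts include DKC1 itself, which was called higher in both comparisons, and NCL and NOP56 from the lists above. Over all genes tested, the shares higher and lower were 22% and 23% in the first comparison and 42.1% and 42.6% in the second. Counts near these shares say little about the hosts. EIF4A1 and SENP3-EIF4A1 hold the same guides, SNORA48 and SNORA67, yet are counted separately. So are MAGED4 and MAGED4B, although 98.5% of the MAGED4 windows recur in genes elsewhere, MAGED4B among them. The hosts with the highest level were TPT1, RPSA, RPS2 and RPL10. TPT1, which carries SNORA31, fell by 0.45 in shDHX15 against shcControl and by 1.20 in shDHX15+MYC against shDHX15 (edgeR adjusted p = 5.08e-10 and 2.55e-17), and none of its windows was found at another locus. Other loci hold 30.5% of the windows of RPSA, 24.8% of those of RPS2 and 10.7% of those of RPL10, and 4 of the 13 ribosomal protein hosts share at least 20%, against 2 of the other 64. How reads of such shared stretches were assigned is not given in the sources used here. Host messages do not measure the guide RNAs.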
